A study of Schizosaccharomyces pombe with 6 samples.

Results

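In 280 places of the fission yeast genome a coding transcription unit began at most 200 bases after the end of another coding unit on the same strand. These downstream units are the members described here. They were chosen from the deposited unit table alone, with no expression value used, and make up 280 of its 4105 coding units and of its 5484 units of all classes. A transcription unit is a stretch of the genome transcribed as 1 RNA, with its start and end as the authors mapped them. The gap is the difference between the position of the 5′ end of a member and that of the 3′ end of its upstream neighbour, and every member had exactly 1 such neighbour in range.

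RNA polymerase II does not stop at the end of a gene. It transcribes past the poly(A) site, the nascent RNA is cleaved there, and a 5′ to 3′ exonuclease (Dhp1 in Schizosaccharomyces pombe) degrades the RNA still being made until the polymerase leaves the template. Spt5, which travels with the polymerase as part of the DSIF elongation factor, takes part in this change: in fission yeast its phosphorylation by Cdk9 and dephosphorylation by the phosphatase Dis2 are linked to slowing of the polymerase after the poly(A) site. A polymerase that fails to leave in time can run into the next unit, either adding reads to it or disturbing its promoter, so close tandem neighbours are a natural place to look for read-through.

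The 6 libraries came from S. pombe strain ASP167 (h-, ura4-D18). It is ade6::ade6+ with the auxin receptors described next. In this strain spt5+ carries a V5-IAA17 tag, an auxin degron, and is transcribed from Pnmt81, a weak thiamine-repressible promoter, while OsTIR1 and AtTIR1-2NLS-9myc, each fused to skp1 under Padh15, supply the ubiquitin ligase subunits that recognise the degron. Both 0 h libraries were from cells before treatment, and the 2 libraries each at 2.5 h and 4.5 h were from cells grown after addition of thiamine and 1-naphthaleneacetic acid (NAA), which together repress spt5 and degrade its protein. All 6 carried the tagged allele, and no culture left untreated for the same time and no treated strain without the degron is among them, so depletion, the 2 additions and hours of growth cannot be told apart. Cells were labelled with 5 mM 4-thiouracil for 10 min, so that the purified RNA was mostly newly made, and reads were counted per unit. Totals ran from 11525663 to 35673601 counts per library. The spt5 unit itself fell from 1040 and 721 CPM (reads scaled to a common library total) at 0 h to 121 and 108 at 2.5 h and to 98.2 and 92.3 at 4.5 h, log2 changes of -2.95 and -3.21 (edgeR adjusted p = 0.00468 and 0.00383), with every treated library below both 0 h libraries.

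The 0 h pair was the loosest. Its 2 libraries differed by 2-fold or more in 31 of 279 members (11.1%) and in 11.6% of all coding units, against 1 member each in the 2.5 h and the 4.5 h pair. CPM values are scaled to each library's total as corrected by TMM, so a fall in the RNA made by all genes alike would not be seen.

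Of the 280 members, 138 lie on the plus strand and 142 on the minus strand, with 129 on chromosome I, 103 on II and 48 on III. No gap was shorter than 79 bases: 37 members had gaps of up to 100 bases, 104 of over 100 and up to 150, and 139 of over 150, with a median of 150. In 30 cases the upstream unit was itself a member, so the 280 pairs hold 530 different units. The level of members, as CPM per kilobase of unit and averaged over all libraries, had a median of 32.9, against 41.7 for all coding units. Their 5′ leader had a median of 88 bases, against 114 for all coding units and 82 for tandem units with gaps of over 200 and up to 400 bases, and 48.2% had no intron, against 50.4%.

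Another unit overlapped the member in 108 of 280 cases, always on the opposite strand (a coding unit in 79 and a noncoding unit in 30). The library kit and the counting were not stated to be strand-specific in any source at hand. Whether reads of these members and of their partners were counted apart was not tested. At 0 h rer1, wholly inside the opposite-strand unit of ccs1, had 140 and 137 CPM, above the 114 and 136 of ccs1. There hen1 had 1.63 and 1.66 CPM, while cdc6, which covers 65.1% of it, had 186 and 176. The member rpa34, wholly inside the unit of sme1, had 24.4 and 17.7 CPM, below the 59.4 and 43.2 of sme1. The gene annotation of RefSeq (ASM294v3) draws many of these boundaries differently. On it, the annotated genes of 30 pairs (10.7%) overlapped or touched, those of 64 pairs lay over 200 bases apart, and 244 gaps held bases of an annotated exon on the same strand. The unit boundaries are the authors', and the gap is known no better than they are.

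The gaps were rich in A and T, with 66.9% and 72.9% AT as the quartiles of their composition. The 200 bases before a member's start held the letters AATAAA, the poly(A) signal, on the sense strand in 35.7% of members, in 29.6% of tandem units with gaps of over 200 and up to 400 bases, and in 28.6% of all coding units. TATAAA, the core promoter element, occurred in 24.3% and 22.3%. TGTA, which contains the GTA bound by the termination factor Seb1 in RNA, occurred in 77.9% of members and 70.6% of all coding units, but in 78.3% of the tandem units with gaps of over 200 and up to 400 bases. CAGTCACA, the HomolD element of ribosomal protein promoters, occurred in 1 member (0.357%) and in 1.63% of all coding units. On either strand the 4 motifs occurred in 63.6%, 44.6%, 93.2% and 0.357% of members and in 51.6%, 36.8%, 90.2% and 2.68% of all coding units. AATAAA and TATAAA can share letters where they adjoin. With gaps of at most 200 bases, the window of a member also takes in the end of its upstream unit, unlike the windows of wider tandem pairs. The last 50 bases of the upstream units held AATAAA on the sense strand in 14.6%, against 16.4% for the ends of all coding units. The 50 bases after those ends held it in 15.0% and 12.2%. These shares were not tested, and a match is only a run of letters. The windows of members were also richer in AT (median 70.5% against 68.0%).

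The stretches of 5 gaps that carry no annotated exon on either strand show what lies between such units. The 5 gaps are that of cft1, the smallest of all, and those of 4 members whose values are described below (asr1, cdc45, gcs1 and cwf15). The sequences are from RefSeq, 5′ to 3′ on the strand of the pair, and capitals mark the poly(A) signal, the core promoter element or the Seb1 letters named above.
pop8 to cft1, chrII:1113198-1113269, plus strand: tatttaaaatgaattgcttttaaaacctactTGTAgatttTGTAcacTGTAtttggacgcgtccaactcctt
SPCC126.08c to asr1, chrIII:2129700-2129801, minus strand: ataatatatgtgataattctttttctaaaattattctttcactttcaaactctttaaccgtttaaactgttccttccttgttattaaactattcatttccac
pex7 to cdc45, chrI:4724646-4724771, plus strand: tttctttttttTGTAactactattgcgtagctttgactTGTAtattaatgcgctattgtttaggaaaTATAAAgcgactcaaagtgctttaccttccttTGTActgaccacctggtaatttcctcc
snu23 to gcs1, chrI:683684-683833, plus strand: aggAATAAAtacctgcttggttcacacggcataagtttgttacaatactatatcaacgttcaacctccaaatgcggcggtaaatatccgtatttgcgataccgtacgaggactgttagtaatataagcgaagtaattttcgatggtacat
ecm14 to cwf15, chrII:1042030-1042109, minus strand: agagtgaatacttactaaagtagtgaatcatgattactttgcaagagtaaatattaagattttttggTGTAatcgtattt
Between pop8 and cft1, 3 copies of TGTA lay within 72 bases. Between SPCC126.08c and asr1 there was no match to any of the 3 motifs. The gap before gcs1 opened with an AATAAA just after the end of snu23, and the gap before cdc45 held a TATAAA.

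At 2.5 h, about as many close downstream units changed as coding units in general, and they went both ways. By edgeR's quasi-likelihood test, fitted on all 5208 units that passed the filter on low counts and adjusted over all of them (Benjamini-Hochberg, threshold 0.05), 20 members rose and 14 fell, of 280 tested. That is 12.1% of members, against 13.5% of all coding units (7.28% higher and 6.18% lower) and 17.4% of all units. The median change of members was -0.02 on the log2 scale, against -0.08 for all coding units. At 4.5 h, 16 members rose and 25 fell (14.6%), against 15.9% of coding units (7.23% higher and 8.67% lower) and 17.9% of all units, and the medians were -0.06 and -0.04. From 2.5 h to 4.5 h, 5 rose and 13 fell, which is 6.43% of members against 10.2% of coding units (3.93% higher and 6.23% lower) and 10.3% of all units. The split between directions moved with the scaling. With DESeq2's size factors in the same edgeR test it was 13 higher and 15 lower at 2.5 h, and 11 higher and 31 lower at 4.5 h. With library totals it was 9 higher and 25 lower at 4.5 h, and 0 higher and 13 lower between the treated times. Against 0 h the share of members called was near that of coding units, and between the treated times it was lower, a difference that was not tested. The number of calls rested on the 0 h libraries: at 2.5 h it was 97 and 93 without 0 h replicate 1 or 2, when the coding share was 40.8% and 39.5%. It was 4 and 0 without 2.5 h replicate 1 or 2 (coding shares 1.71% and 0.0244%), and 7 without either 4.5 h library (3.83% and 4.03%). At 4.5 h it was 97 and 113 without 0 h replicate 1 or 2, 6 without either 2.5 h library, and 2 and 0 without 4.5 h replicate 1 or 2. The coding shares in those fits were 41.8% and 40.2%, 5.1%, and 1.27% and 0.683%. Between the treated times it was 105 and 104 without either 0 h library (coding shares 39.9% and 40.1%) and 0 without any one treated library. All 34 members called at 2.5 h and all 41 called at 4.5 h kept the direction of their change in each of these 6 fits. They were called from the same libraries, which leaves little room for a reversal.

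The shortest gaps had the highest median change at 2.5 h. The 37 members with gaps of up to 100 bases had a median log2 change of 0.21, with 4 higher and none lower. It was -0.05 for gaps of over 100 and up to 150 bases (10 higher and 4 lower of 104) and -0.04 for longer ones (6 higher and 10 lower of 139). The 4 were hrq1, prp3, the N-acetyltransferase subunit gene naa35 and the vitamin H transporter unit SPAC1B3.15c. Tandem units farther apart stood at -0.15 (gaps of over 200 and up to 400 bases), -0.10 (over 400 and up to 1000) and -0.06 (over 1000). At 4.5 h the shortest gaps again had the highest median, with 0.05, -0.06 and -0.11 for the 3 ranges of members. The 2 called lower members with gaps up to 100 bases at 4.5 h were the uracil transporter fur4 (-0.54, adjusted p = 0.0404) and again SPAC1B3.15c, which was higher by 1.06 at 2.5 h (adjusted p = 0.0356) and lower by 1.31 at 4.5 h (log2 change -1.31, adjusted p = 0.021). A noncoding unit on the opposite strand overlaps SPAC1B3.15c. Relative to the median of all coding units, the 2.5 h value of the shortest gaps was 0.28, and it was 0.42 without 2.5 h replicate 1 and 0.16 without 2.5 h replicate 2. At 4.5 h that value was 0.09, and 0.26 without 0 h replicate 2. No test of the difference between the gap ranges was made.

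**Figure D1:**
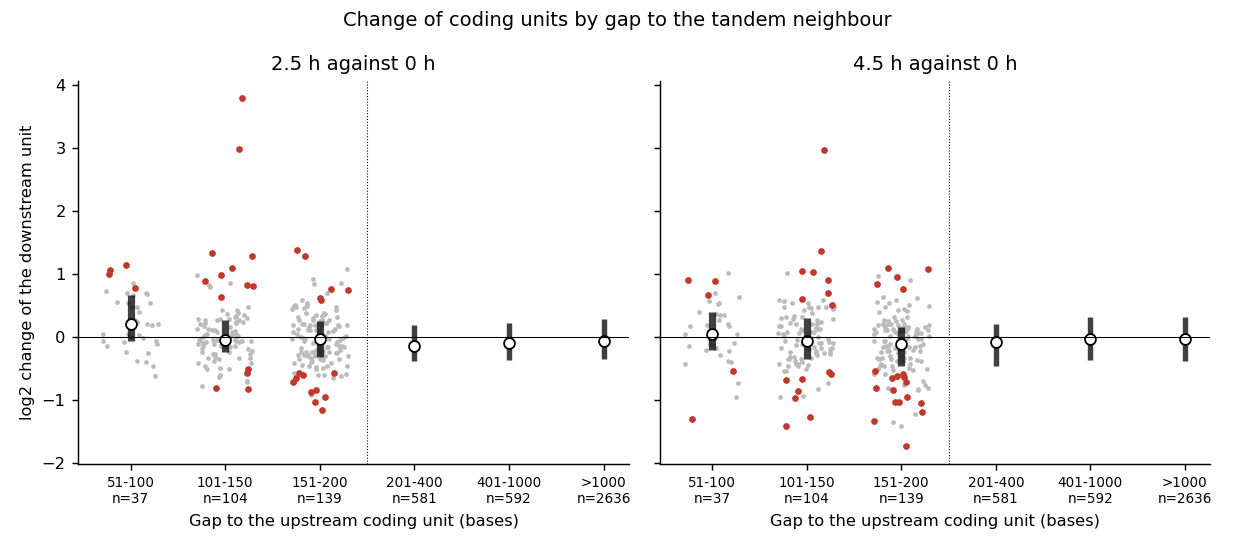
Log2 change (vertical axis) of units by gap to the upstream coding unit in bases (horizontal axis), at 2.5 h and 4.5 h against 0 h. Points left of the dotted line are members (red if called by edgeR), white circles are medians and bars run from the lower to the upper quartile. The median of the shortest gaps lies above 0 at both times (0.21 and 0.05), and the medians of the other ranges lie below it.

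The ratio of the downstream to the upstream unit follows a pair within each library. In the pairs with gaps of up to 100 bases, the median log2 ratio of levels per kilobase was -0.30 and -0.03 before treatment, 0.10 and 0.18 at 2.5 h, and 0.27 and 0.17 at 4.5 h. Every treated library lay above both 0 h libraries. A ratio does not show which unit moved. At 2.5 h the median log2 change in these pairs was 0.21 for the members and 0.02 for the upstream units. At 4.5 h it was 0.05 for the members (3 higher and 2 lower by edgeR) and -0.20 for the upstream units (0 higher and 5 lower). The 0 h libraries differed from each other by more than 0 h replicate 2 did from 2.5 h replicate 1, and the exact permutation test over libraries (two-sided) gave p = 0.33 at each time, the smallest value that 2 against 2 libraries allow. In the pairs with gaps of over 100 and up to 150 bases the same medians were -0.23 and -0.30, then -0.29 and -0.23, then -0.41 and -0.29, and the groups overlapped. Over all 279 pairs with both units tested, they were -0.25 and -0.14, then -0.18 and -0.08, then -0.18 and -0.16, again overlapping (exact permutation p = 0.667 and 1.0). Pairs over 400 and up to 1000 bases apart went from 0.08 and 0.10 at 0 h to 0.25 and 0.23 at 4.5 h, so a higher ratio was not limited to short gaps.

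**Figure D2:**
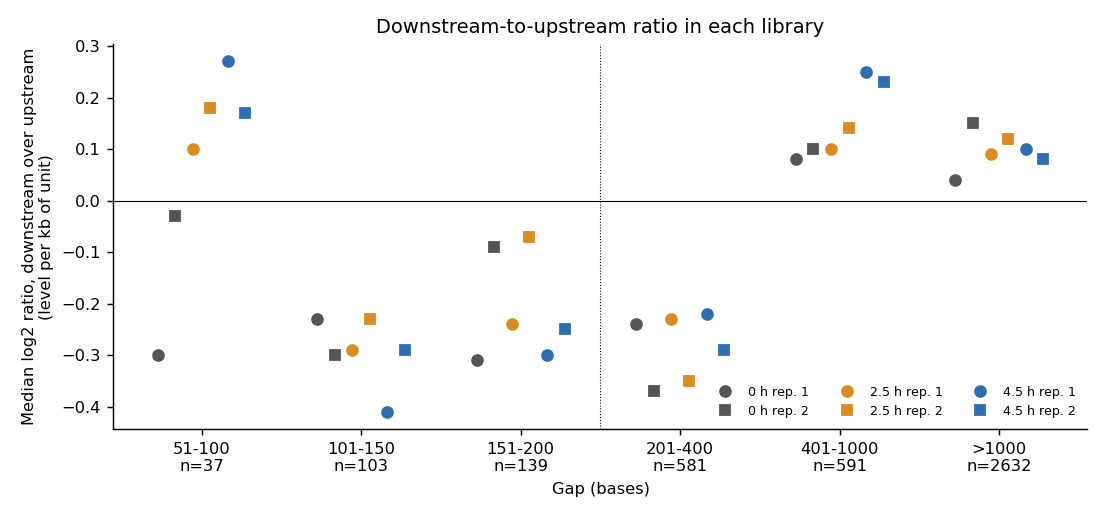
Median log2 ratio of the downstream to the upstream unit (level per kilobase) in each of the 6 libraries, by gap range in bases. Circles are replicate 1 and squares replicate 2, and members lie left of the dotted line. In the range of the shortest gaps the 2 libraries at 0 h (-0.30 and -0.03) lie below the 4 treated ones.

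Pair by pair, the ratio was tested with limma over all 4083 tandem pairs with both units measured. At 2.5 h it rose in 8 member pairs and fell in 4 of 279 (4.3%), against 7.84% of all tandem pairs (3.77% higher and 4.07% lower). At 4.5 h it rose in 25 and fell in 11 (12.9%), against 14.5% of all tandem pairs (7.27% in each direction). Between the treated times 15 rose and 15 fell, against 9.55% of all pairs (5.02% higher and 4.53% lower). With gaps of up to 100 bases, 2 pairs rose and 0 fell at 2.5 h (79 of all 279 member pairs had an unadjusted p under 0.05), and 5 rose and 0 fell at 4.5 h. The 5 were SPAPB2B4.06, omh4, naa35, nup211 and hnt1. As with single units, these counts were 98 and 90 (2.5 h) and 102 and 111 (4.5 h) without 0 h replicate 1 or 2, when 39.0% and 35.8% (2.5 h) and 44.4% and 41.5% (4.5 h) of all tandem pairs were called. They were 0 at 2.5 h without any one treated library, and at 4.5 h 2 without either 2.5 h library and 0 without either 4.5 h library.

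Among pairs in which both units averaged 50 counts or more, the 4 with the largest ratio rises at 4.5 h were those of cwf15, sec17, ubp9 and hnt1, and in each the upstream unit fell and was called. In the pair of inv2 (a beta-fructofuranosidase, which splits sucrose) and sec17 (alpha SNAP, a factor of membrane fusion), the downstream-to-upstream ratio was 2.01 and 1.88 at 0 h, 2.85 and 2.52 at 2.5 h, and 10.4 and 10.7 at 4.5 h. Its log2 change at 4.5 h was 2.43 ± 0.21 (SE, limma adjusted p = 0.00608), and both 4.5 h libraries were above the other 4. There inv2 fell by 1.95 (adjusted p = 0.00641) while sec17 changed by 0.48 (adjusted p = 0.168). In the pair of opa3, a regulator of mitochondrial lipid metabolism, and the ubiquitin hydrolase ubp9, the ratio went from 1.27 and 1.47 at 0 h to 6.72 and 6.63 at 4.5 h (log2 change 2.27 ± 0.22, adjusted p = 0.00784). Again the upstream unit fell (opa3, by 2.46, adjusted p = 0.00383), and ubp9 itself had a log2 change of -0.18 (adjusted p = 0.466). The ratio of hnt1 to cox18 rose by 2.02, with cox18, a protein of mitochondrial membrane insertion, falling by 1.45 (adjusted p = 0.0114).

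The pair of ecm14 and cwf15 moved at both ends. The carboxypeptidase unit ecm14 had 84.1 and 54.1 CPM at 0 h, 44.8 and 56.0 at 2.5 h, and 25.1 and 26.4 at 4.5 h. The spliceosome gene cwf15, which starts 163 bases after it, had 26.7 and 25.8 CPM at 0 h, 36 and 32.3 at 2.5 h, and 50.1 and 62.6 at 4.5 h. As the rule that named them requires, both units separated the 0 h from the 4.5 h libraries without overlap. Their directions were opposite. At 4.5 h cwf15 rose by 1.10 ± 0.18 (log2 with SE, edgeR adjusted p = 0.0128), and the ratio rose by 2.48 ± 0.31 (limma adjusted p = 0.0127). The unit ecm14 is itself a member, 120 bases after the ubiquitin gene ubi4, and fell by 1.42 (adjusted p = 0.0163) with ubi4 at -0.02 (adjusted p = 0.975).

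The 4 largest falls of the ratio at 4.5 h were those of pho84, flx1, asa1 and arb2. The phosphate transporter pho84 had 1080 and 534 CPM at 0 h and 909 and 781 at 4.5 h, while the unit before it had 37.1 and 54.4 at 0 h, 227 and 311 at 2.5 h, and 248 and 288 at 4.5 h. That upstream unit (SPBC8E4.02c) is classed as coding in the unit table, but RefSeq lists its gene as the noncoding RNA prt2, the only upstream unit with a gene not annotated as protein coding. It rose by 2.55 at both times (adjusted p = 0.00534 and 0.00495), and the ratio fell by 2.42 ± 0.52 at 4.5 h (limma adjusted p = 0.0395). In the pair of met16 (a reductase of sulfate assimilation) and arb2 (an Argonaute-binding protein), met16 rose by 0.76 (adjusted p = 0.0393). There arb2 stood at 5.64 and 2.56 CPM at 0 h and 1.83 and 1.21 at 4.5 h, a change of -1.42 that missed the threshold (adjusted p = 0.107). In the pair of tom7 (mitochondrial import) and flx1 (an FAD transporter) the ratio fell by 2.37 (limma adjusted p = 0.0372), though neither unit passed alone (tom7 at 1.57, adjusted p = 0.0965, and flx1 at -0.64, adjusted p = 0.101). An opposite-strand unit covers 94.1% of flx1.

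**Figure D3:**
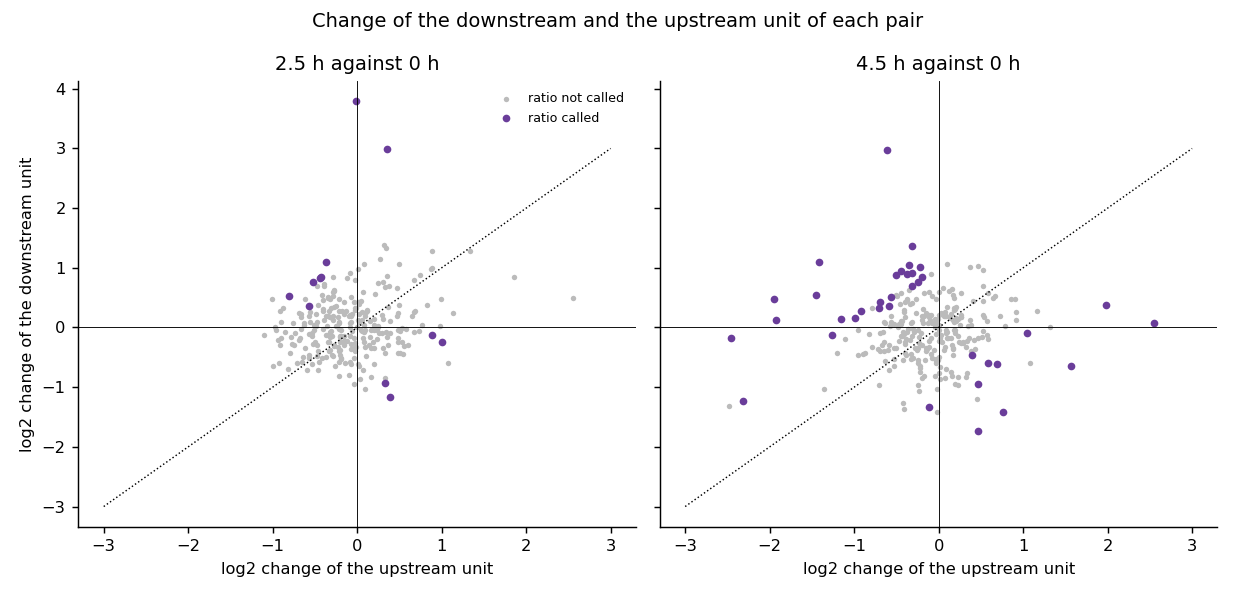
Log2 change of the downstream unit (vertical axis) against that of its upstream unit (horizontal axis) at 2.5 h and 4.5 h, 1 point per pair (n = 279). Purple points are pairs whose ratio was called by limma, and the dotted line marks equal change. At 4.5 h, 25 called pairs lie above the line and 11 below it.

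Among members that carry a symbol and averaged 50 counts or more, those that rose most at 2.5 h were hen1, msf1, mpf2, atg5, prp3 and asr1. The methyltransferase gene hen1, which starts 135 bases after rnh1 (ribonuclease H), had 1.63 and 1.66 CPM at 0 h, 11.4 and 14.9 at 2.5 h, and 3.58 and 4.93 at 4.5 h. The 3 times did not overlap. The rise was 2.99 ± 0.28 at 2.5 h (log2 with SE, adjusted p = 0.00513) and 1.37 ± 0.28 at 4.5 h (adjusted p = 0.0259). The ratio of hen1 to rnh1 per kilobase was 0.0664 and 0.0766 at 0 h and 0.412 and 0.477 at 2.5 h, while rnh1 itself changed by 0.35 (adjusted p = 0.191). An opposite-strand coding unit, that of the DNA polymerase delta gene cdc6, covers 65.1% of hen1, and had a change of 0.49 (adjusted p = 0.0797) at 2.5 h.

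In 2 of these 6 pairs the upstream unit rose too. The autophagy gene atg5 had 31.7 and 35.5 CPM at 0 h, 75.9 and 87.7 at 2.5 h, and 28.6 and 28.5 at 4.5 h. Both 2.5 h libraries were above all others, with a rise of 1.28 ± 0.16 (adjusted p = 0.00677). Its neighbour SPBC4B4.12c had 10.2 and 6.86, then 19.2 and 23.5, then 9.97 and 11.4 CPM, and rose by 1.33 at 2.5 h (adjusted p = 0.0219), so the ratio changed by -0.05 (limma adjusted p = 0.927). The unit of mpf2, a meiotic RNA-binding protein of the Pumilio family, rose by 1.28 ± 0.17 (adjusted p = 0.00809) after ggc1, a mitochondrial guanine nucleotide transporter, which rose by 0.88 (adjusted p = 0.0116). The same held for hrq1, a RecQ helicase, 81 bases after mgs1, a DNA replication ATPase. There hrq1 rose by 1.0 and mgs1 by 0.88 at 2.5 h (adjusted p = 0.014 and 0.027).

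In the other 4 pairs only the downstream unit passed the threshold, which does not show that the neighbours differed unless the ratio did. The splicing factor gene prp3 had 136 and 158 CPM at 0 h, 294 and 353 at 2.5 h, and 224 and 240 at 4.5 h, and rose by 1.14 ± 0.17 at 2.5 h (adjusted p = 0.00987). Its ratio to pof11 changed by 0.86 (limma adjusted p = 0.0533). The ubiquitin ligase gene asr1 had 52.1 and 69.7 CPM at 0 h, 116 and 144 at 2.5 h, and 112 and 137 at 4.5 h, with rises of 1.09 and 1.03 (adjusted p = 0.0213 and 0.0263). Its ratio to SPCC126.08c rose at 2.5 h by 1.47 (limma adjusted p = 0.0474). The phenylalanyl-tRNA synthetase gene msf1 rose by 1.38 ± 0.34 (adjusted p = 0.0413), after gma12, a Golgi galactosyltransferase gene at 6.49 times its level.

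**Figure D4:**
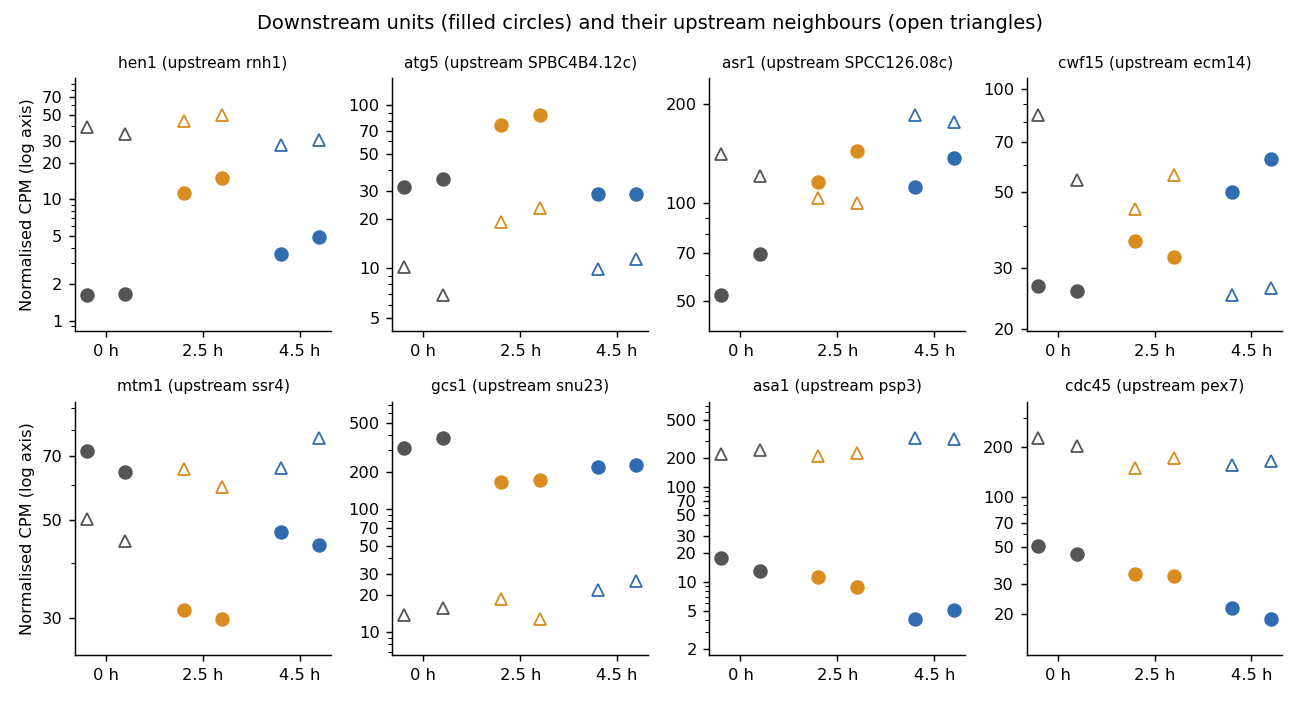
Normalised CPM (log axis) of 8 members (filled circles) and their upstream units (open triangles) in the 6 libraries, by time in h. The members hen1 and atg5 peak at 2.5 h (11.4 and 14.9 CPM, 75.9 and 87.7 CPM), and asa1 and cdc45 are lowest at 4.5 h (4.11 and 5.07 CPM, 21.6 and 18.6 CPM).

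The largest rise of any member was that of mfm3, a gene for the M-factor mating pheromone. It falls under the count that the rule for named genes requires and was picked out after its values were seen. It had 13 and 8 reads at 0 h, 76 and 56 at 2.5 h, and 19 and 51 at 4.5 h, a log2 change of 3.79 ± 0.59 at 2.5 h (adjusted p = 0.0113) and 2.97 at 4.5 h (adjusted p = 0.0242). Its ratio to the upstream unit also rose most of the tested member pairs at 4.5 h, by 3.09 (limma adjusted p = 0.0452). S. pombe has other genes for the same pheromone with similar sequence, and how reads shared with them were counted is not given, so its level is uncertain. Its upstream unit, the long glycoprotein gene SPBPJ4664.02, had 450 and 843 CPM at 0 h and changes of -0.01 at 2.5 h (adjusted p = 0.993) and -0.61 at 4.5 h (adjusted p = 0.207), and a noncoding unit on the other strand covers 91.1% of mfm3.

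At 2.5 h a larger share of the members that overlap a unit on the opposite strand was called higher than of the others, a difference that was not tested. At 2.5 h, 14 of those 108 rose (13.0%) and 2 fell (1.85%), while of the 172 that overlap none, 6 rose (3.49%) and 12 fell (6.98%). Tandem units more than 200 bases apart showed a like split, with 11.2% higher and 4.24% lower of 1414 that overlap, and 4.89% higher and 7.47% lower of 2395 that do not. At 4.5 h, 11 rose and 9 fell of the 108, and 5 rose and 16 fell of the 172. Of the 6 named rises at 2.5 h, hen1, atg5, prp3 and asr1 overlap a coding unit, over 65.1%, 33.1%, 68.5% and 8.63% of their length. None of the 4 partners (cdc6, prp39, uso1 and twf1, with log2 changes of 0.49, -0.59, 0.29 and 0.07) was called at 2.5 h. The part of opposite-strand reads in these rises was not tested.

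The 6 named falls at 2.5 h were all members that overlap no other unit. The manganese transporter gene mtm1, 195 bases after ssr4 (a chromatin remodelling subunit), had 72.0 and 64.5 CPM at 0 h, 31.2 and 29.8 at 2.5 h, and 46.9 and 43.8 at 4.5 h. Both 2.5 h libraries were lowest, with a fall of 1.16 ± 0.15 at 2.5 h (adjusted p = 0.00739). Its ratio to ssr4 fell from 2.35 and 2.36 to 0.781 and 0.820 (limma adjusted p = 0.0235). The gene gcs1, for the first enzyme of glutathione synthesis, had 314 and 375 CPM at 0 h, 165 and 172 at 2.5 h, and 219 and 229 at 4.5 h, with a fall of 1.03 ± 0.15 at 2.5 h (adjusted p = 0.0101). Its upstream unit, the splicing factor gene snu23, lay at only 0.205 times its level. The others were vid27 (a WD repeat protein, fell by 0.95), pir2 (a zinc finger protein of RNA processing, by 0.87), enp2 (an rRNA processing protein, by 0.85) and mrs6 (an escort protein for Rab prenylation, by 0.83).

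At 4.5 h, the rises by the same rule were hen1, cwf15, yos1, asr1, rpa34 and mmp2. The secretory gene yos1 had 4.05 and 3.54 CPM at 0 h, 4.28 and 4.30 at 2.5 h, and 8.83 and 7.07 at 4.5 h. It rose late, by 1.07 ± 0.24 (adjusted p = 0.031), after upf2, a nonsense-mediated decay factor at 5.79 times its level, which changed by 0.10 (adjusted p = 0.70). The RNA polymerase I subunit gene rpa34 rose by 0.95 (adjusted p = 0.0332), and the whole of it lies inside an opposite-strand unit, that of sme1. The protease gene mmp2 rose by 0.91 (adjusted p = 0.032), and the noncoding unit that covers 85.8% of it from the other strand rose by 1.26 (adjusted p = 0.0153).

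The falls at 4.5 h by that rule were asa1, ecm14, pof10, cdc45, fmp40 and gpi17. The gene asa1, for an ASTRA-associated protein, had 17.7 and 12.9 CPM at 0 h, 11.2 and 8.87 at 2.5 h, and 4.11 and 5.07 at 4.5 h, and fell by 1.74 ± 0.27 (adjusted p = 0.0122). The 3 times did not overlap. Its upstream unit psp3, a serine protease gene at 18.6 times its level, changed by 0.47 (adjusted p = 0.065), and the ratio fell by 2.18 (limma adjusted p = 0.0171). The F-box protein gene pof10 had 140 and 139 CPM at 0 h, 82.4 and 86.9 at 2.5 h, and 61.8 and 48.5 at 4.5 h, with a fall of 1.34 ± 0.17 (adjusted p = 0.00747). The replication gene cdc45, whose product is part of the helicase at the fork, had 50.9 and 45.9 CPM at 0 h, 34.4 and 33.7 at 2.5 h, and 21.6 and 18.6 at 4.5 h. It fell by 1.27 ± 0.17 (adjusted p = 0.00824) after pex7, a peroxisomal import receptor at 5.70 times its level, which changed by -0.42 (adjusted p = 0.101). The other falls were 1.20 for fmp40 (a protein adenylyltransferase) and 1.03 for gpi17 (GPI anchor attachment). A noncoding unit on the other strand covers 95.2% of fmp40, and at 2.5 h it rose by 2.08 (adjusted p = 0.00513).

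By quartile of the upstream unit's level, members differed little in their median at 2.5 h. At 4.5 h those after the most highly transcribed units had the lowest median. Members were split into quartiles of the upstream unit's level, with medians of 12.4, 28.8, 51.2 and 117 CPM per kilobase. At 2.5 h the median log2 change of the member was -0.05, -0.04, 0.03 and 0.04 from the lowest to the highest quartile. At 4.5 h it was 0.09, -0.11, 0.06 and -0.21, and in the highest quartile 12 of 70 members fell and 4 rose. Between 2.5 h and 4.5 h, the highest quartile had a median of -0.33 (52 of 70 below 0), while the others lay between -0.04 and 0.01. Relative to all coding units, the highest quartile stood at -0.17 at 4.5 h, and at -0.11 without 0 h replicate 2.

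The upstream level was then set against the member's own. In the 70 pairs with the upstream unit at least 2.76 times the member (median 4.72 times), the median log2 ratio per kilobase was -2.58 and -2.44 at 0 h, -2.07 and -2.06 at 2.5 h, and -2.61 and -2.55 at 4.5 h. Both 2.5 h libraries lay above the other 4, and the 0 h and 4.5 h libraries overlapped. In the lowest quartile of that measure it went the other way, with 1.85 and 1.95 at 0 h, 1.75 in both 2.5 h libraries, and 1.97 and 1.98 at 4.5 h. The exact permutation test gave p = 0.33 for 2.5 h against 0 h in both quartiles, the smallest possible. The median change of the members in the highest quartile was 0.09 at 2.5 h (6 higher and 1 lower of 70), -0.33 at 4.5 h (5 higher and 10 lower) and -0.39 between the treated times (0 higher and 8 lower, 56 of 70 below 0).

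Pairs with wider gaps in that range of upstream over own level also had their highest ratios at 2.5 h. The median log2 ratio was -2.63 and -2.62 at 0 h, -2.44 and -2.45 at 2.5 h, and -2.92 and -2.88 at 4.5 h with gaps of over 200 and up to 400 bases (171 pairs). It was -2.70 and -2.64, then -2.49 and -2.45, then -2.77 and -2.76 with gaps over 1000 bases (635 pairs). The medians of the downstream units at 4.5 h were -0.33 and -0.10. Split by own level alone, the lowest quartile of members had a median of -0.26 at 4.5 h. Tandem units in that range of level stood at -0.48 with gaps of over 200 and up to 400 bases and at -0.19 with gaps over 1000. Members were also split at the medians of both levels. At 4.5 h those after an upstream unit above its median stood at 0.01 with own level above the median and at -0.29 below it. After an upstream unit below its median the values were 0.02 and -0.12. In that order 5 rose and 9 fell of 67, 4 and 9 of 72, 4 and 4 of 72, and 3 and 3 of 68 (7.23% and 8.67% of all coding units). Own level and the ratio of levels are both computed from the member's counts, and the separate parts of upstream and own level were not tested.

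**Figure D5:**
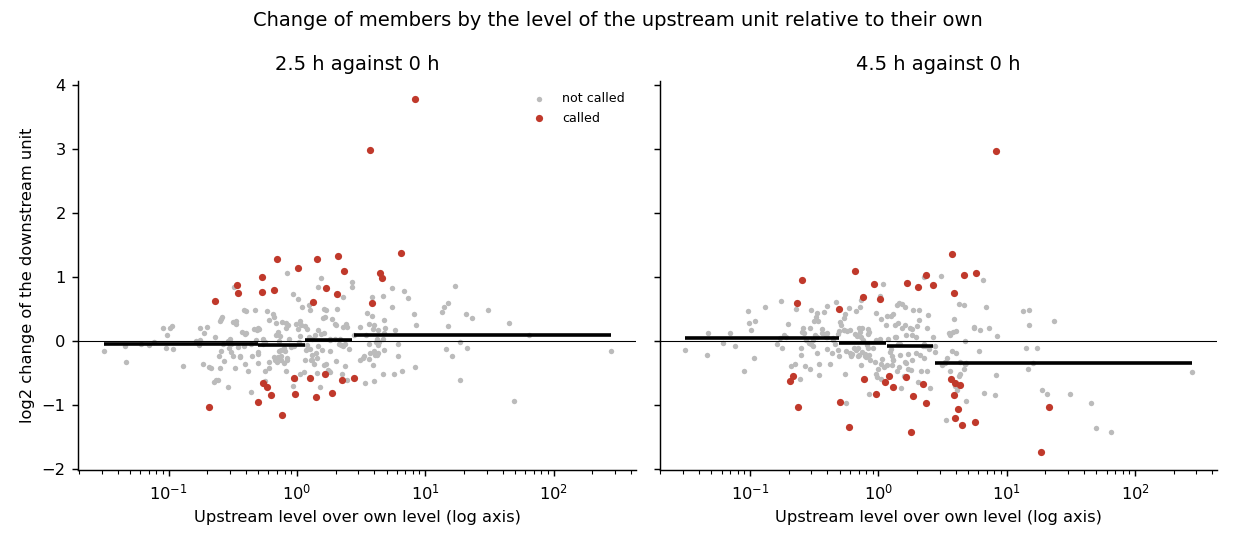
Log2 change of each member (vertical axis) against the level of its upstream unit over its own (horizontal log axis) at 2.5 h and 4.5 h (n = 279). Red points were called by edgeR and black lines are quartile medians. The line of the highest quartile lies at 0.09 at 2.5 h and at -0.33 at 4.5 h.

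Among members that carry a symbol and averaged 50 counts or more, 6 had the most highly transcribed neighbours relative to themselves. As single units these 6 were not called against 0 h by edgeR. They were arb2 (upstream met16, 64.8 times its level), cab4 (ser1, 49.2 times), nta1 (utp10, 30.9 times), fmc1 (nup189, 23.2 times), slx4 (rng10, 20.6 times) and rrn11 (nog1, 18.7 times). Members without a symbol that lay in this range were SPAC1071.09c (after the proton pump gene pma1, 278 times), SPAC694.03 (45 times) and SPAC57A10.08c (after nhp6, 21.2 times), named after their values were seen. Of these, SPAC57A10.08c was called lower at 4.5 h (-1.03, adjusted p = 0.0361). The amidase gene nta1 had 12.3 and 8.51 CPM at 0 h, 15.2 and 14 at 2.5 h, and 5.33 and 6.43 at 4.5 h. Both treated pairs lay outside the 0 h pair, above it at 2.5 h and below it at 4.5 h, and the change between them was -1.31 ± 0.26 (adjusted p = 0.0392). The nuclease subunit gene slx4 had 7.20 and 11.1, then 10.6 and 14.1, then 3.96 and 6.36 CPM, and its change between the treated times (-1.25) missed the threshold (adjusted p = 0.0725). The RNA polymerase I factor gene rrn11 stayed at 7.27, 7.13, 7.16 and 7.06 CPM through 2.5 h and stood at 3.73 and 4.71 at 4.5 h (-0.77, adjusted p = 0.066). The assembly factor gene fmc1 (log2 changes 0.36 and 0.32) and cab4 (-0.93 and -1.36, adjusted p = 0.193 and 0.0843) did not share this course. Between the treated times the ratio to the upstream unit changed by -1.81 for nta1, -1.74 for slx4, -1.42 for rrn11 and -2.25 for arb2. Each was called by limma (adjusted p = 0.037, 0.0363, 0.0363 and 0.0428), as were 9.55% of all tandem pairs. Against 0 h the ratio was called for cab4 at 2.5 h (-1.31, limma adjusted p = 0.0494) and for arb2 at 4.5 h (-2.04, 0.0422). That of fmc1 was not called. At 2.5 h the neighbours utp10, rng10 and nog1 had changes of -0.34, -0.15 and -0.67, of which that of nog1, a ribosome assembly GTPase, was called (adjusted p = 0.0223).

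Among the 4 members with a symbol and the smallest gaps no common direction appeared. Only hrq1, described above, was called against 0 h, with log2 changes of 1.0 at 2.5 h and 0.17 at 4.5 h (edgeR adjusted p = 0.014 and 0.533). The cleavage factor gene cft1, 79 bases after pop8, had 304 and 275 CPM at 0 h, 259 and 288 at 2.5 h, and 247 and 255 at 4.5 h, and did not pass the test (log2 changes -0.08 and -0.21). Its neighbour pop8, an RNase P subunit, had only 1.23 and 1.10 CPM at 0 h. The nuclear envelope gene man1, 81 bases after nab2, had 156 and 187, then 148 and 180, then 171 and 180 CPM (adjusted p = 0.841 and 0.908), with nab2 at 114 and 130, then 124 and 110, then 115 and 130. The elongation factor 2 gene eft202 had 768 and 266 CPM in the 0 h libraries, which differ from each other more than any treated library from 0 h replicate 2, so no change could be read there. It has a near-identical copy in the genome, and its counts are uncertain for that reason too.

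Members and neighbours were rarely called together, in wider pairs as well. Both units of a pair were called in 3 of 279 pairs at 2.5 h, all in the same direction. At 4.5 h they were called in 3 pairs, 2 of them in the same direction. The 3 wider gap ranges hold 581, 591 and 2632 tested tandem pairs. There both units were called in 9, 16 and 46 pairs at 2.5 h (6, 9 and 23 in the same direction). At 4.5 h it was 15, 19 and 79 pairs (4, 10 and 52 in the same direction). The 2 changes of a pair had the same sign in 52.7% of member pairs at 2.5 h and in 52.0% at 4.5 h. In the wider ranges the shares were 57.7%, 52.3% and 51.6% at 2.5 h, and 49.7%, 48.2% and 52.5% at 4.5 h. The differences from members were not tested. Pearson's r of the member's and the upstream unit's log2 change over 279 pairs was 0.19 at 2.5 h and 0.03 at 4.5 h, against 0.03 and 0.06 over 3804 tandem pairs farther apart. These are descriptions only, since all points share the same 6 libraries and 30 upstream units are also members. Of the 20 members that rose at 2.5 h, 7 followed an upstream unit with a negative change, and of the 14 that fell, 5 followed one with a positive change. In the 3 wider gap ranges the first count was 18 of 35, 24 of 42 and 95 of 199. The second was 23 of 46, 14 of 31 and 74 of 162.

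Near the limit of 200 bases, the members at exactly 200 were qcr10 (respiratory chain), pof10 and pxp2 (a peroxisomal protein), with log2 changes of 0.84, -0.72 and 0.76 at 2.5 h and 0.59, -1.34 and -0.53 at 4.5 h. Just beyond it, 1 or 2 bases past the limit, tim14, tvp23 and tmp1 (mitochondrial import, Golgi transport and thymidylate kinase) had changes of -0.22, 0.09 and 0.40 at 2.5 h and 0.24, -0.02 and -0.81 at 4.5 h.

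Genes for the machinery of termination and elongation were looked at in the same fit. These lists hold genes known for those roles. Of 25 genes for cleavage, polyadenylation and termination, 2 rose and 2 fell at each time, with medians of -0.09 and 0.00, so that 4 of 25 were called where 13.5% (2.5 h) and 15.9% (4.5 h) of all coding units were. The exonuclease gene dhp1 rose at both times (0.63 and 0.86, adjusted p = 0.045 and 0.0199), from 343 and 372 CPM at 0 h to 502 and 605 at 2.5 h and 639 and 656 at 4.5 h. The cleavage factor gene cft2, itself a member, rose at 2.5 h (0.88, adjusted p = 0.0209), and yth1, a zinc finger subunit, at 4.5 h (1.07, adjusted p = 0.0184). The scaffold gene pta1 (-0.50) and the poly(A)-binding gene pab2 (-0.80) fell at 2.5 h, and dbl8 (-0.72) and the unit shared by rex3 and clp1 (-0.66) fell at 4.5 h. The other 2 members of this list, cft1 and the poly(A) polymerase gene pla1, were not called. Of 15 elongation factor genes, 1 rose and 2 fell at 2.5 h (ell1 by 0.77, and spt5 and prf1, which fell by 0.78), and 1 rose and 1 fell at 4.5 h (ell1 and spt5). The treatment represses spt5, so its fall was set by the design and says nothing about the list. Of all coding units 13.5% and 15.9% were called at these times. Ribosomal protein genes (141) take part in only 5 of the 280 pairs. By edgeR's test 2 of them rose at 2.5 h and 3 at 4.5 h, and none fell. That is a lower share than the 13.5% and 15.9% of all coding units called. Their median log2 changes were -0.25 and 0.03, against -0.08 and -0.04 for all coding units.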

How the data were processed

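The authors deposited whole-number read counts per transcription unit for 6 libraries of 4-thiouracil labelled RNA, and a table of units. Reads were aligned with STAR 2.3.0 to ASM294v2, and SAMtools was used, per the submitters' processing notes; the counting tool and its strand setting were not given in the sources at hand. From the deposited unit table, coordinates, intron numbers and UTR lengths were taken, and its half-life and synthesis time columns, a score of unstated scale, were used only as ranks and are not reported. RefSeq (ASM294v3) gave names, exons and sequence. Its 3 nuclear chromosomes matched the units: 5028 of 5062 gene identifiers were found, all at overlapping positions, and 4902 of 4912 introns (99.8%) had splice-site ends there.

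Units were filtered with filterByExpr, scaled by TMM and fitted over all 6 libraries with edgeR 4.0.16 (quasi-likelihood, robust, 3 residual degrees of freedom); 5208 units, all 280 members and 279 upstream units passed. Ratios of downstream to upstream unit were log2 CPM differences (prior count 2), tested with limma 3.58.1. Other tools were R 4.3.3, DESeq2 1.42.0 (an alternative), Python 3.11.15 and pandas 2.3.3. Both fits were tested on simulated data. The design text calls the replicates biological, but their numbers are not said to mark shared cultures. No column was left unmapped (0).

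Members and lists were chosen with earlier results of these data known. Named genes were the 6 members with the largest rise and fall (3 between treated times) among those called, with a mean count of at least 50, libraries that do not overlap and a symbol; their upstream units; the 6 with a symbol and that count with the highest upstream over own level; the 4 smallest gaps; the pairs with the 4 largest called ratio changes each way at 4.5 h and a mean count of at least 50 in both units; the 3 units either side of 200 bases; and spt5. Other settings included other scalings, filters, gap limits, a replicate block and each library left out.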

Additional observations from a re-analysis of the deposited data

Results flagged for a closer look

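For 10 named members the change between the treated times itself passed edgeR's test (adjusted p under 0.05), so that their course differed between 2.5 h and 4.5 h. In 7 of them the level was lower at 4.5 h. The log2 change from 2.5 h to 4.5 h was -1.62 for hen1, -1.52 for atg5, -1.31 for nta1, -1.29 for pxp2, -1.0 for mpf2, -0.83 for hrq1 and -0.76 for cdc45. Of these, hen1, atg5, mpf2, hrq1 and pxp2 had risen at 2.5 h, and cdc45 was called lower at 4.5 h. In 3 members the level was higher at 4.5 h. The change was 0.83 for prp43 (an RNA helicase of splicing and ribosome assembly), 0.83 for rer1 (a Golgi retrieval receptor) and 0.67 for rrp6 (the nuclear exosome nuclease). The gene rrp6 had 102 and 95.9 CPM at 0 h, 69.5 and 72.5 at 2.5 h, and 114 and 112 at 4.5 h. All 10 calls were lost when any 1 treated library was left out, and all 10 were kept without either 0 h library. With 2 libraries per time, no group was large enough to test for a library that stands apart.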

How the results depend on the processing

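Counts of called members depended most on which libraries entered the fit. At 2.5 h, 34 calls became 20 with library totals or with a stricter filter (mean count of 50) and 9 with only the libraries of the 2 times; at 4.5 h, 41 became 7 with only the 2 times. Between the treated times, 18 became 38 with DESeq2 and 106 with only the 2 times. Called ratios went from 12 to 0 at 2.5 h and from 36 to 2 at 4.5 h with only the 2 times. With 1 library left out, the ranges were 0 to 97, 0 to 113 and 0 to 105 for members, and 0 to 98 and 0 to 111 for ratios; the lone library of a group is then assumed to vary like the others. With a replicate block, the counts were 34, 49 and 24 for members and 8 and 34 for ratios; replicate numbers deviated together with correlations of 0.46, 0.209 and 0.103 between times, but only 2 numbers exist and nothing marks a shared culture. No named call reversed its direction, but the named rises and falls were chosen for libraries that do not overlap, which leaves little room for a reversal. Other gap limits, leaving out overlapping or ribosomal protein units and, chosen after seeing the data, keeping only annotated genes 1 to 200 bases apart gave shares from 10.5% to 13.9% at 2.5 h and 12.2% to 15.6% at 4.5 h. Median changes relative to all coding units ranged, with 1 library left out, at 2.5 h from 0.03 to 0.09 (all members), 0.16 to 0.42, 0.03 to 0.10 and -0.02 to 0.03 (the 3 gap ranges), and 0.03 to 0.15 and 0.03 to 0.11 (lowest and highest upstream quartile). At 4.5 h they ranged from -0.04 to -0.01, 0.06 to 0.26, -0.08 to 0.02, -0.12 to -0.05, 0.04 to 0.12 and -0.21 to -0.11. The only value that moved beyond its replicate spread with another scaling was that of gaps of over 100 and up to 150 bases at 4.5 h, 0.02 with library totals against -0.01. Where a fit made no call, 32 to 44 members (4.5 h against 2.5 h), 39 members (2.5 h or 4.5 h against 0 h) and 34 to 49 member pairs still had an unadjusted p under 0.05 by edgeR or limma. The cause of these shifts was not tested. Depth limits low units: 3 reads equal 0.0841 to 0.260 CPM per library.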

Other observations

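Pairs that the reference annotation places apart were counted as well, a split chosen after the data were seen. Of 64 members whose annotated genes lie over 200 bases from the upstream gene, 6 rose and 0 fell at 2.5 h by edgeR's test, and 4 rose and 8 fell at 4.5 h. Of 186 with annotated genes 1 to 200 bases apart, 11 rose and 12 fell at 2.5 h, and 12 rose and 17 fell at 4.5 h. Of 30 whose annotated genes overlap or touch, 3 rose and 2 fell at 2.5 h, and none was called at 4.5 h. Of all coding units, 7.28% rose and 6.18% fell at 2.5 h, and 7.23% rose and 8.67% fell at 4.5 h. The difference between these sets was not tested. The share of all reads that fell in members was 3.46% and 3.71% at 0 h, 3.64% and 3.67% at 2.5 h, and 3.33% and 3.38% at 4.5 h. That in their upstream units was 5.44% and 5.23%, then 5.11% and 4.88%, then 4.75% and 4.73%. The share in all coding units was lower after treatment too, with 83.2% and 83.5%, then 79.2% and 76.9%, then 77.5% and 78.0%.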
